A study of Mus musculus with 35 samples.

Results

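Transcripts of the heat shock protein and co-chaperone family were followed in the mouse hippocampus after status epilepticus (SE), by 10 gene symbols among the 32544 genes counted: *Hspb1*, *Cryab*, *Hspa1a*, *Hspa1b*, *Hspa5*, *Hspa8*, *Hsph1*, *Hsp90aa1*, *Dnajb1* and *Dnajb5*. Mice had received kainic acid into the amygdala (IAKA), a glutamate receptor agonist that sets off SE, or PBS by the same route, and hippocampi were taken at 24 hours or 2 weeks. By the study's methods the animals were males of 7 to 9 weeks of the C57BL/6JOlaHsd strain with an implanted cannula, and lorazepam, an anticonvulsant, followed kainic acid by 40 minutes. Whether PBS animals were given lorazepam is not given in the sources used here. RNA pulled down with an antibody against N6-methyladenosine (m6A) was sequenced at 24 hours for 5 IAKA against 3 PBS mice, and at 2 weeks for 6 against 5. Total RNA (input), which is not selected for m6A, was used for 3 IAKA mice against 1 PBS mouse at 24 hours and for 6 against 3 at 2 weeks, after 3 input libraries with 3171 to 34486 counts had been set aside.

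Heat shock proteins are chaperones that hold, refold or hand on unfolded proteins. The transcription factor HSF1 binds repeated heat shock elements before their genes and switches them on when misfolded protein accumulates, while the chaperones of the endoplasmic reticulum (ER) answer to ER stress through a different promoter element. HSPB1 is known in the brain as a protein that reactive astrocytes and vessels make after injury, and inducible HSP70 as a marker of stressed neurons.

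The promoters of 4 members are shown because they hold the elements by which these genes are classed, and because these 4 genes had an unadjusted p under 0.05 in the m6A libraries of 24 hours. As both were grounds for the choice, no link between element and difference can be read from it. *Hspa1b*, with the same match as *Hspa1a*, had an unadjusted p of 0.131 in edgeR there and is not shown. The 250 bases before each RefSeq start site (GRCm38.p6) were searched for the pairs of heat shock units GAANNTTC and TTCNNGAA, which read the same on both strands, and for the ER stress element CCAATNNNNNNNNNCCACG on both strands. These letters are capitals in the sequences below, which run 5′ to 3′ on the strand of the gene and end at the base before the start site. For *Hsph1*, only the 24 bases around the match are given (chr5:149636354-149636377, minus strand).
Hspb1 (chr5:135887669-135887918, plus strand): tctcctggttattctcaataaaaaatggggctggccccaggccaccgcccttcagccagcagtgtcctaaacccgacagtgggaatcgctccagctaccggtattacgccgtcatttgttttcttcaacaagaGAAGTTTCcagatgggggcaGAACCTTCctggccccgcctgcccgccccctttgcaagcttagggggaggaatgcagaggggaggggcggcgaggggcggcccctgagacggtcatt
Hspa1a (chr17:34972157-34972406, minus strand): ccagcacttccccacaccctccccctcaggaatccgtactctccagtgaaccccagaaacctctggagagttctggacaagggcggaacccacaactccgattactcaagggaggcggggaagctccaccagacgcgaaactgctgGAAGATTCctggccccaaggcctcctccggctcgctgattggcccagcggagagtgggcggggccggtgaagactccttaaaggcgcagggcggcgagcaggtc
Hspa5 (chr2:34771840-34772089, plus strand): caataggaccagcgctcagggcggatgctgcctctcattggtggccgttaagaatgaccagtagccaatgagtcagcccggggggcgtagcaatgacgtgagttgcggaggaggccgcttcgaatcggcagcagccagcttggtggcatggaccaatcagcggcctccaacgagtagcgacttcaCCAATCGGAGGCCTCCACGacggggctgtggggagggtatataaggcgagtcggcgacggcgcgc
Hsph1: tagaatctTTCTCGAAggctcgag

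*Hspb1* held 2 pairs of the first form, GAAGTTTC at 117 to 110 and GAACCTTC at 97 to 90 bases before the start. *Hspa1a* and *Hspa1b* held GAAGATTC at the same place in both, and their 250 bases differed at 3 positions. *Hsph1* held 1 pair of the second form, and *Hspa5* held the ER stress element. One or the other heat shock pair was found in 12.9% of 27025 promoters searched in the same way, and the ER stress element in 0.12%. No match was found before the starts listed for *Dnajb1* and *Dnajb5*. *Cryab*, *Hspa8* and *Hsp90aa1* were not among the promoters used. A match is a run of letters and was not tested for binding.

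The m6A libraries held 1652933 to 34564536 counts (median 15291875) and the 13 input libraries used held 3057578 to 12694434 (median 5498360). The shallowest m6A libraries were those of IAKA mice 98 (1652933) and 67 (1979606) of 24 hours. PBS mice of that time had 13548376 to 27894393. The m6A library of mouse 98 held 16 counts of *Hspb1*, 22 of *Hspa1a* and 11 of *Hspa1b*. Column names sort the m6A libraries into 3 sets with the prefixes 3, 4 and 5, whose meaning the labels do not give. At 24 hours the IAKA mice were in sets 3 and 4 and the PBS mice in sets 4 and 5, so only set 4, with 2 mice per treatment, holds both. At 2 weeks only set 5, with 3 mice per treatment, holds both. Every one of the 8 markers of excitatory neurons, including *Prox1* of dentate granule cells, and of the other marker lists used was detected in every group. IAKA mouse 8 (24 hours) stood apart: its summed excitatory neuron markers were 874 CPM (counts per 1000000 of the library total) in the m6A and 845 CPM in the input library, and its summed astrocyte markers 1102 and 889 CPM, each the lowest among the m6A or input libraries used. As these are whole hippocampi, fewer cells of a type and less RNA per cell cannot be told apart.

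*Hspb1* was the member with the widest difference at 24 hours. It encodes HSP27, a small heat shock protein that binds unfolded proteins and actin (chr5:135887919-135889563). In the m6A libraries it was at 13.1, 28.8, 9.68, 45.1 and 33.1 CPM in IAKA mice 8, 67, 98, 79 and 97. The PBS mice 71, 73 and 1 were at 1.86, 0.644 and 0.148 CPM. All 5 IAKA libraries lay above all 3 PBS libraries, and the mean was 25.95 ± 14.6 CPM (SD, n = 5) against 0.885 ± 0.883 CPM (n = 3), a ratio of 29.3. The edgeR log2 fold change was 4.76 ± 0.75 (SE), with an adjusted p of 0.103 over 16470 genes.

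The *Hspb1* difference lay between 4.30 and 5.89 on the log2 scale under all alternatives, while its call depended on them. Within library set 4, where IAKA mice 79 and 97 were set against PBS mice 71 and 73, the log2 fold change was 4.74 and the adjusted p 0.00775. Without IAKA mouse 8, whose *Hspb1* level was the second lowest of the 5, it was 4.85 with an adjusted p of 0.0274. DESeq2 gave 4.77 (adjusted p = 6.31e-10) and edgeR without a filter on low counts 4.67 (adjusted p = 0.0247). Genes called in these 4 settings made up 2.11%, 0.279%, 0.978% and 0.0739% of those tested, against 0.00607% (1 gene, *Tm4sf1*, log2 fold change 3.42) in the comparison as reported. In PBS mice of both times *Hspb1* was at 0.644 to 6.04 CPM in set 4 and at 0.148 to 1.37 CPM in set 5. Over all alternatives the adjusted p of *Hspb1* ran from 6.31e-10 to 0.745, the highest without PBS mouse 73. With all mice of 24 hours and the set as a block it was 0.241 in edgeR, at a log2 fold change of 4.81.

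**Figure D1:**
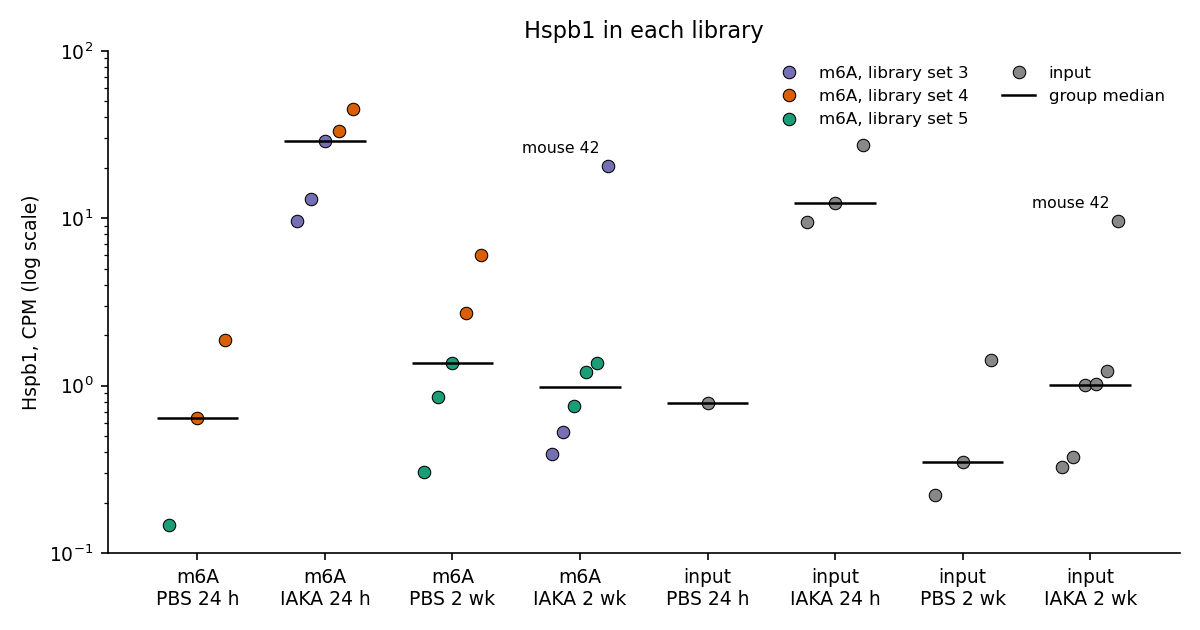
*Hspb1* in CPM (log axis) in each library, by assay, treatment and time. Points are single mice, coloured by m6A library set or grey for input, and lines are group medians. The IAKA libraries of 24 hours sit between 9.47 and 45.1 CPM, and at 2 weeks mouse 42 stands alone at 20.5 CPM (m6A) and 9.68 CPM (input).

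Input RNA gave a like picture from fewer mice. IAKA mice 8, 67 and 98 were at 12.4, 27.3 and 9.47 CPM of *Hspb1*, and the single PBS mouse was at 0.788 CPM, which is 10 counts. The log2 fold change was 4.64 ± 1.63 (adjusted p = 0.428, edgeR). The fit takes the lone PBS library to vary like the other groups. In these 3 IAKA mice the m6A and input levels were nearly equal, with log2 ratios of m6A over input of 0.03 to 0.08.

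At 2 weeks *Hspb1* was low in nearly all mice. PBS mice 50, 78, 2, 3 and 4 were at 2.70, 6.04, 1.37, 0.855 and 0.304 CPM in the m6A libraries, and the 6 IAKA mice ran from 0.392 to 20.5 CPM with a median of 0.979. The groups overlapped, and the log2 fold change was 0.91 ± 1.00 (adjusted p = 0.891). The highest value was that of IAKA mouse 42. Without this mouse the log2 fold change was -1.36. In input RNA the PBS mice 2, 3 and 4 were at 0.222, 1.43 and 0.350 CPM and the IAKA mice at 0.327 to 9.68 CPM (median 1.02), again with mouse 42 highest and a log2 fold change of 1.69 ± 1.18 (adjusted p = 0.757). It was 0.41 without mouse 42 and 2.75 without PBS mouse 3. Ordered by median in the m6A libraries, *Hspb1* was highest in IAKA at 24 hours (28.8 CPM), followed by PBS at 2 weeks (1.37), IAKA at 2 weeks (0.979) and PBS at 24 hours (0.644), and the last 3 groups overlapped. The change of the IAKA effect from 24 hours to 2 weeks was -3.86 ± 1.49 on the log2 scale, with an adjusted p of 1.00 over 17440 genes, and -6.11 without mouse 42 (adjusted p = 0.120).

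Glial and vascular markers were high in some mice with high *Hspb1* and not in others. Mouse 42 had the highest summed astrocyte markers of all m6A (7451 CPM) and all input libraries used (7528 CPM), with 8 of 8 markers detected, and the highest microglia markers (485 and 299 CPM). Its summed endothelial markers were 309.5 CPM in the m6A library. The highest endothelial sum of the m6A libraries (937 CPM) was that of IAKA mouse 6 at 2 weeks, with *Hspb1* at 0.526 CPM. The summed microglia markers of the m6A libraries of 24 hours overlapped, at 128 to 377 CPM in IAKA and 153 to 231 CPM in PBS. At 24 hours the summed endothelial markers of the m6A libraries were 303 to 512 CPM in IAKA and 257 to 302 CPM in PBS. The lowest IAKA value (303.0 CPM, mouse 8) and the highest PBS value (301.6 CPM, mouse 71) were almost the same. In input the IAKA mice (471 to 1216 CPM) lay on both sides of the PBS mouse (914 CPM). Of the 8 endothelial markers, 5 had a log2 fold change above 0 in the m6A libraries (median 0.19 against 0.08 over all genes) and 8 in the input libraries (median 1.22 against 0.27), and none passed the test. Of the 8 astrocyte markers, 4 were above 0 in the m6A libraries (median 0.33) and 6 in the input libraries (median 0.65), and none passed the test. Their sum in the m6A libraries was 1102 to 5341 CPM in IAKA and 2927 to 3742 CPM in PBS. Among these, *Gfap*, the intermediate filament of astrocytes, was at 1883, 2162, 1433 and 857 CPM in IAKA mice 79, 97, 67 and 98, and at 263 CPM in mouse 8, against 241 to 465 CPM in PBS. The part of these cells in the *Hspb1* level was not tested. The genes whose levels were ordered most like *Hspb1* over the 19 m6A libraries, among 15548 genes, were *Palld*, an actin-binding protein (Spearman rho 0.91), *Syk*, a tyrosine kinase of immune cells (0.91), and *Itga5*, a fibronectin receptor subunit (0.90). These 19 libraries share the grouping by treatment, time and library set.

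*Cryab*, the other small heat shock protein of the set (αB-crystallin, made by oligodendrocytes and astrocytes, chr9:50745951-50756636), showed no such difference. At 24 hours its m6A levels were 18.5, 51.5, 36.9, 29.2 and 33.5 CPM in IAKA mice 8, 67, 98, 79 and 97 and 25.2, 28.0 and 20.9 CPM in PBS mice 71, 73 and 1. The groups overlapped, with a log2 fold change of 0.39 ± 0.28 (adjusted p = 0.983). The 2-week value was 0.05 ± 0.29 in the m6A and 0.22 ± 0.20 in the input libraries.

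The inducible HSP70 genes *Hspa1a* (chr17:34969359-34972156) and *Hspa1b* (chr17:34956429-34959238) were higher in some IAKA mice at 24 hours and not in others. They encode nearly the same protein, a chaperone that is scarce until cells are stressed. Their longest reading frames in the transcripts used have 1926 and 1929 bases and differ at 8 positions outside the extra codon (99.6% identical), so reads may have been shared between the copies and the values of each are uncertain. *Hspa1a* was at 10.0, 122, 13.3, 156 and 40.5 CPM in the m6A libraries of IAKA mice 8, 67, 98, 79 and 97, and at 19.2, 18.96 and 4.06 CPM in PBS mice 71, 73 and 1. Mice 67, 79 and 97 were above all PBS mice, and mice 8 and 98 were not. The log2 fold change was 2.16 ± 0.89 (adjusted p = 0.880). *Hspa1b* was at 5.94, 72.2, 6.66, 155 and 44.2 CPM in the same IAKA mice and at 26.9, 21.6 and 6.50 CPM in PBS, with a log2 fold change of 1.53 ± 0.93 (adjusted p = 0.983), which was 0.66 without mouse 79.

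Input RNA of IAKA mice 8, 67 and 98 held 12.2, 46.7 and 7.17 CPM of *Hspa1a* against 6.14 CPM in the PBS mouse, and 9.48, 54.2 and 10.5 CPM of *Hspa1b* against 8.51 CPM. Mouse 67 was the highest in both genes and in both assays among these 3. The log2 fold changes were 2.12 ± 0.94 and 1.80 ± 0.94 (adjusted p = 0.519 and 0.594). Without mouse 67 they were 1.06 and 0.57.

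The level of both genes differed between library sets. In PBS mice of both times, *Hspa1a* was at 18.96 to 23.7 CPM in the 4 mice of set 4 and at 0.912 to 4.39 CPM in the 4 mice of set 5. *Hspa1b* was at 21.6 to 28.9 CPM and 4.15 to 6.50 CPM. Neither gene's ranges overlapped. The sets were apart in other transcripts as well. The summed excitatory neuron markers of the same PBS mice were 4774 to 5693 CPM in set 4 and 1790 to 2351 CPM in set 5. The share of all genes separated between these sets was not counted, so the separation cannot be read as particular to these genes. The same holds for the levels by set of other genes given below. At 2 weeks, where set 4 holds PBS mice and no IAKA mice, the comparison gave log2 fold changes of -0.69 ± 0.61 for *Hspa1a* and -0.75 ± 0.51 for *Hspa1b*, and within set 5 alone it gave 1.07 and 0.76, so that the direction turned. With the set as a block the values were 1.06 and 0.74, and in the input libraries 0.96 ± 0.64 (0.46 without PBS mouse 4) and 1.23 ± 0.64. At 24 hours the value within set 4 was 2.25 for *Hspa1a* and 1.93 for *Hspa1b*. No adjusted p in these settings was below 0.215. The set and the treatment cannot be told apart outside set 4 at 24 hours and set 5 at 2 weeks.

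**Figure D2:**
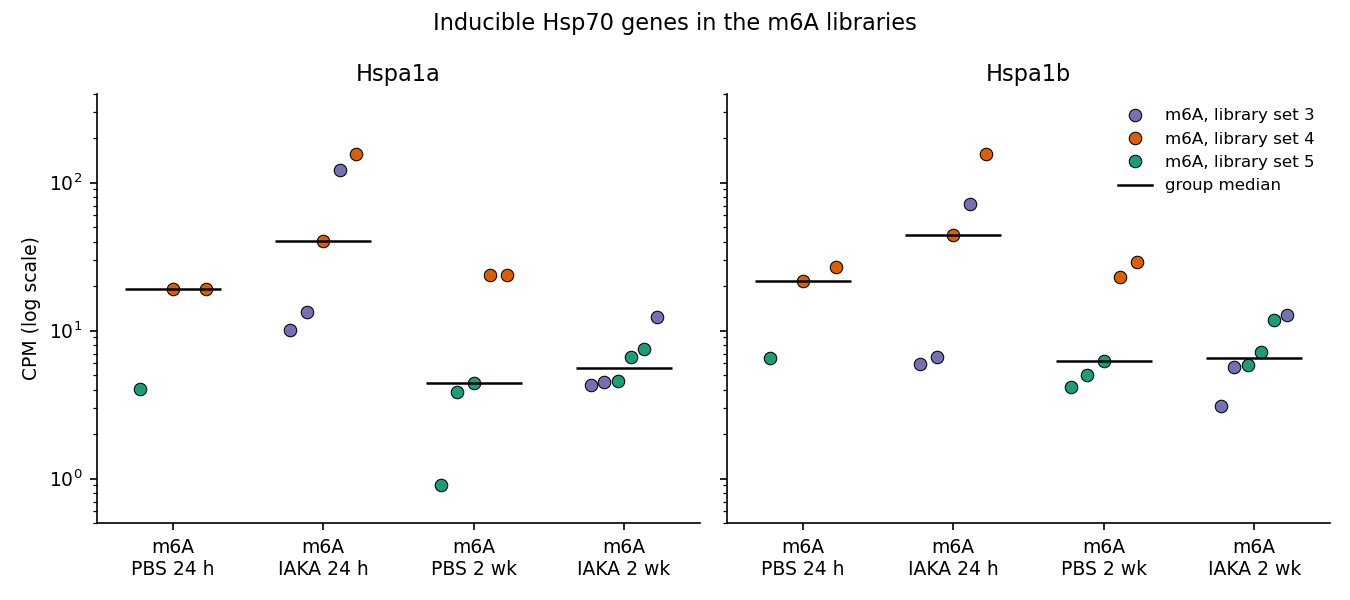
*Hspa1a* and *Hspa1b* in CPM (log axis) in each m6A library, by treatment and time. Points are single mice coloured by library set, and lines are group medians. PBS mice of set 4 sit at 18.96 to 28.9 CPM and those of set 5 at 0.912 to 6.50 CPM over the 2 genes.

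*Hspa5* encodes BiP, the HSP70 of the ER and a target of the ER stress response (chr2:34772090-34776529). Its m6A level at 24 hours was 308, 490, 278, 1008 and 942 CPM in IAKA mice 8, 67, 98, 79 and 97 and 374, 277 and 217 CPM in PBS mice 71, 73 and 1. Mice 79 and 97, both of set 4, and mouse 67 were above all PBS mice, and mice 8 and 98 lay among them. The log2 fold change was 1.01 ± 0.44 (adjusted p = 0.903). Within set 4 it was 1.47 with an adjusted p of 0.0125, and with *Hspb1* and *Hsph1* it was 1 of 3 members called there, where 2.11% of 16903 genes were called. With all mice of 24 hours and the set as a block it was also 1.47, with an adjusted p of 0.528 in edgeR. In input RNA, for which no IAKA mouse of set 4 was used, the IAKA mice were at 167, 283 and 195 CPM and the PBS mouse at 187 CPM, with a log2 fold change of 0.49 ± 0.39 (adjusted p = 0.740). At 2 weeks the m6A values were 261 to 575 CPM (median 440) in IAKA and 720, 402, 451, 411 and 400 CPM in PBS mice 50, 78, 2, 3 and 4, and the log2 fold change was -0.08 ± 0.23.

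*Hsph1*, an HSP110 that frees ADP from HSP70 and so resets its cycle (chr5:149616843-149636498), was likewise highest in mouse 79. It was at 213, 764, 557, 997 and 663 CPM in the m6A libraries of IAKA mice 8, 67, 98, 79 and 97 and at 366, 306 and 313 CPM in PBS. Mouse 8 was below all PBS mice and the other 4 were above them. The log2 fold change was 0.89 ± 0.37 (adjusted p = 0.880), 1.08 without mouse 8 (adjusted p = 0.134) and 1.19 within set 4 (adjusted p = 0.0424). With all mice of 24 hours and the set as a block it was also 1.19 (adjusted p = 0.9999, edgeR). Input levels of 194, 434 and 335 CPM in IAKA mice 8, 67 and 98 lay around the 269 CPM of the PBS mouse, with a log2 fold change of 0.54 ± 0.36 (adjusted p = 0.693), or 0.29 without mouse 67. The 2-week *Hsph1* difference was 0.33 ± 0.18 (log2) in the m6A and 0.25 ± 0.22 in the input libraries (adjusted p = 0.875 and 0.823). The genes ordered most like *Hsph1* over the 19 m6A libraries were *Pdia6* and *Dnajb11*, both ER folding proteins (Spearman rho 0.93 and 0.86), and *Aqp4*, the water channel of astrocytes (0.85).

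*Dnajb5* encodes a J-domain co-chaperone, which delivers clients to HSP70 (chr4:42949867-42959425), and was the member that stood out at 2 weeks in input RNA. IAKA mice 42, 21, 5, 7, 9 and 6 were at 56.9 to 89.3 CPM with a median of 77.5, and PBS mice 2, 3 and 4 were at 40.9, 32.5 and 48.1 CPM. All 6 IAKA libraries lay above all 3 PBS libraries. The log2 fold change was 0.88 ± 0.19, with an adjusted p of 0.544 in edgeR and 0.00681 in DESeq2, which called 0.553% of the genes it tested. At 24 hours the input level was 37.9, 63.3 and 57.9 CPM in IAKA mice 8, 67 and 98 and 32.1 CPM in the PBS mouse (log2 fold change 1.01 ± 0.31, adjusted p = 0.373).

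In the m6A libraries *Dnajb5* overlapped between treatments at both times. At 24 hours IAKA mice 8, 67, 98, 79 and 97 were at 31.4, 98.5, 70.8, 116 and 101 CPM and PBS mice 71, 73 and 1 at 52.2, 56.4 and 29.3 CPM, with a log2 fold change of 0.78 ± 0.36 (adjusted p = 0.963). Of the 5 IAKA mice, 4 were above all PBS mice, and mouse 8 was below 2 of them. The 2-week log2 fold change was 0.21 ± 0.29 (adjusted p = 0.903). Here too PBS mice differed by set, with 52.2 to 81.5 CPM in set 4 and 29.3 to 47.7 CPM in set 5, and the value within set 5 was 0.57.

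**Figure D3:**
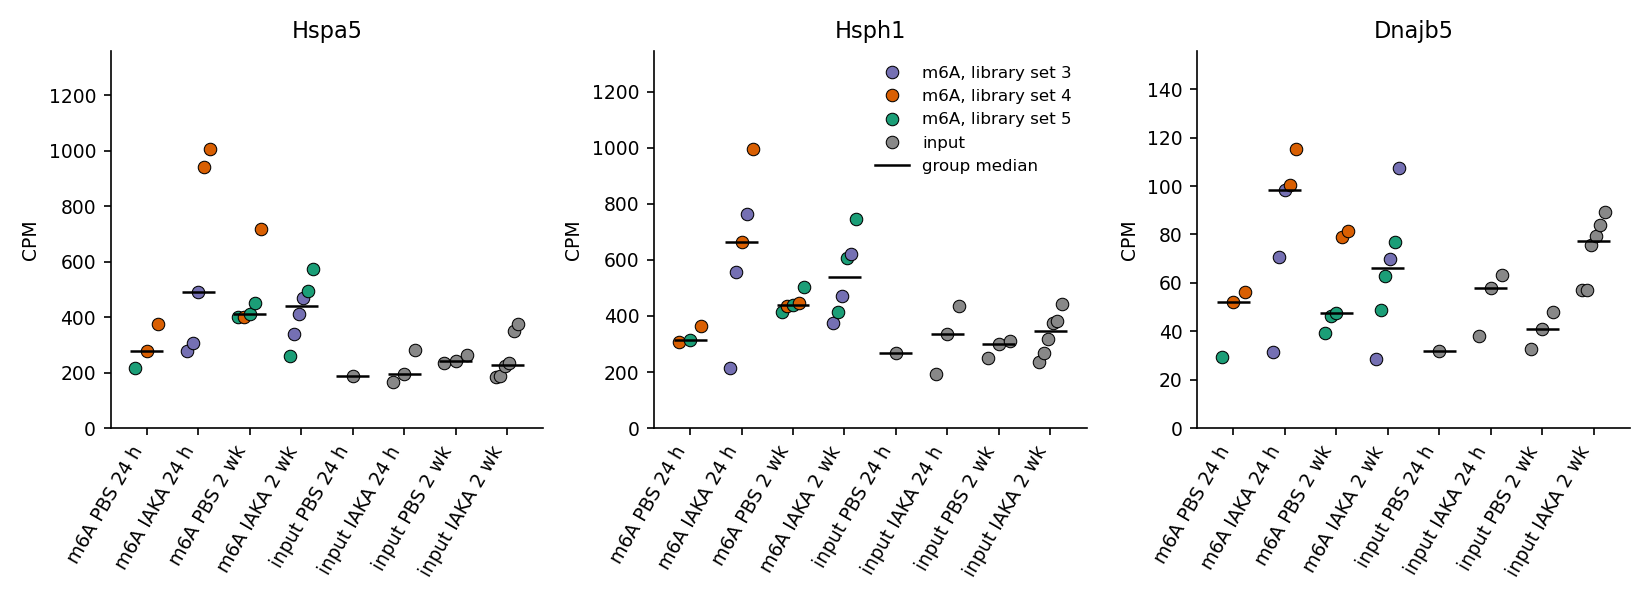
*Hspa5*, *Hsph1* and *Dnajb5* in CPM in each library, by assay, treatment and time. Points are single mice, coloured by m6A library set or grey for input, and lines are group medians. For *Dnajb5*, the 6 IAKA input libraries of 2 weeks (56.9 to 89.3 CPM) sit above the 3 PBS libraries (32.5 to 48.1 CPM).

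Small differences were seen for the remaining members. *Hspa8* encodes the constitutive HSC70 (chr9:40801276-40805202), *Hsp90aa1* the stress-inducible form of HSP90 that completes the folding of kinases and receptors (chr12:110691036-110696395), and *Dnajb1* HSP40, a J-domain partner of HSP70 (chr8:83608175-83612653). *Hsp90aa1* was at 2506, 4382, 3201, 4067 and 3385 CPM in the m6A libraries of IAKA mice 8, 67, 98, 79 and 97 at 24 hours and at 2985, 2324 and 4888 CPM in PBS, with a log2 fold change of 0.01 ± 0.35. *Hspa8* was at 1002, 2692, 2138, 1192 and 1304 CPM against 982, 805 and 1558 CPM (0.54 ± 0.39), and *Dnajb1* at 20.9, 42.9, 29.6, 38.3 and 40.5 CPM against 31.3, 26.6 and 22.7 CPM (0.32 ± 0.24). The groups overlapped for all 3 genes.

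In the input libraries of 24 hours the levels of these 3 genes in all 3 IAKA mice lay below that of the single PBS mouse. *Hsp90aa1* was at 1345, 2026 and 1841 CPM in IAKA mice 8, 67 and 98 and at 3437 CPM in the PBS mouse, and the log2 fold change was -0.69 ± 0.35 (adjusted p = 0.586). *Hspa8* was at 1830, 1535 and 1454 CPM against 2360 CPM (-0.23 ± 0.34, adjusted p = 0.810). *Dnajb1* was at 14.0, 16.4 and 16.1 CPM against 19.8 CPM, and after scaling its log2 fold change was -0.05 ± 0.40. With the 3 shallow input libraries added, *Hsp90aa1* was at 0.00 and *Hspa8* at 0.49, and the *Hsp90aa1* value near 0 in the m6A libraries also turned sign between settings. In PBS mice of the m6A libraries, *Hsp90aa1* was at 2324 to 2991 CPM in set 4 and 4888 to 6432 CPM in set 5, and *Hspa8* at 805 to 1072 CPM and 1558 to 2339 CPM. For these 3 genes the log2 fold changes of 2 weeks lay between -0.24 and 0.19 in both assays, and the groups overlapped.

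Over the 10 members, none passed an adjusted p of 0.05 in edgeR in any of the 6 comparisons as reported. In the m6A libraries of 24 hours all 10 log2 fold changes were above 0, as were 58% of all genes. The member median was 0.83 against 0.08 over all genes. Medians of the other chaperone lists were 0.07 (cytosolic), 0.52 (ER) and 0.16 (mitochondrial). Members were chosen with earlier results of these data known, so their median is no test of the family. An unadjusted p under 0.05 in edgeR was found for 4 members and for 875 of 16470 genes. Every IAKA library lay above every PBS library for 1 member, *Hspb1*, and for 2.62% of all genes. No member lay wholly below, as 1.09% of genes did. At 2 weeks 6 of 10 values were above 0 (49.8% of all genes), with a median of 0.09 (0.00 over all genes). No member was separated in either direction (0.26% of genes were wholly above and 0.334% wholly below). No member or other gene was called (0% of 16157, with 809 at an unadjusted p under 0.05 and 15 called by DESeq2).

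In the input libraries of 24 hours, 4 members lay above the single PBS library in all 3 IAKA mice (*Hspb1*, *Hspa1a*, *Hspa1b* and *Dnajb5*) and 3 lay below (*Hspa8*, *Hsp90aa1* and *Dnajb1*). With 1 PBS library such a separation is common: 10.9% of genes were wholly above and 33.1% wholly below. None of 17644 genes was called (0%), with 1628 at an unadjusted p under 0.05 and 197 called by DESeq2. The median log2 fold change of all genes was 0.27 here and -0.04 when libraries were scaled by size alone, and the member median was 0.55 and 0.26. Under both scalings 7 of 10 members were above 0, which is near the 65.9% of all genes above 0 in the comparison as reported. At 2 weeks 1 member, *Dnajb5*, was wholly above, as 2.36% of genes were, and none wholly below (3.26% of genes). No gene was called by edgeR (0%), with 1439 at an unadjusted p under 0.05 and 44 called by DESeq2.

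**Figure D4:**
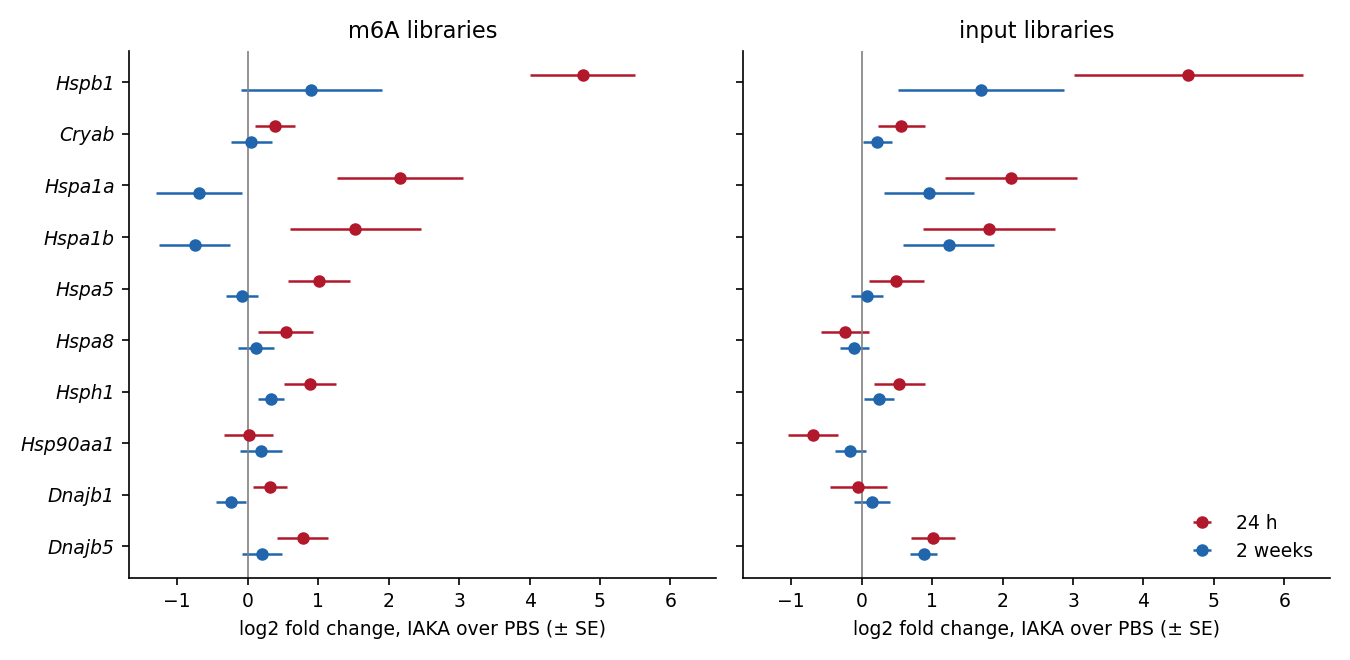
Log2 fold change of IAKA over PBS for the 10 members in the m6A and input libraries, at 24 hours (red) and 2 weeks (blue). Points are edgeR estimates and bars their standard errors. *Hspb1* is at 4.76 and 4.64 at 24 hours, and the *Hspa1a* and *Hspa1b* estimates of 2 weeks lie below 0 in the m6A and above 0 in the input libraries.

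In the m6A libraries the change of the IAKA effect between the time points was above 0 for 39.3% of all genes. The change was below 0 for 9 of 10 members, with a median of -0.57 (-0.11 over all genes). It was -2.87 ± 1.13 for *Hspa1a*, -2.30 ± 1.07 for *Hspa1b* and -1.09 ± 0.47 for *Hspa5*. With the library set as a block these values were -2.07, -1.49 and -0.91, and that of *Hspa1b* was -1.43 without IAKA mouse 79. None passed the test, and 0.00573% of genes did (*Tm4sf1* alone). The 24-hour and 2-week comparisons share no mice, while the m6A and input libraries of a time share animals.

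Whether IAKA changed the pulldown of a transcript beyond its level in total RNA was asked at 2 weeks. The change of m6A over input ran from -2.01 ± 0.80 (*Hspa1b*) to 0.34 ± 0.39 (*Hsp90aa1*), and no member passed the test, nor did any of 16141 genes (0%, with 655 at an unadjusted p under 0.05 and 4 called by DESeq2). This fit took the m6A and input libraries of a mouse as independent, and its SE ignore that pairing. For *Hspa1b* the adjusted p was 0.807. Its PBS m6A libraries include the 2 high mice of set 4, which have no input library used here, and with the mouse as a block, over the 9 mice with both, its value was -0.74. The median over the 10 members was -0.293 as reported and -0.006 with the mouse as a block.

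*Hsp90aa1*, *Hspa5*, *Hsph1* and *Dnajb1* had a higher CPM in the m6A than in the input library of the same animal in nearly all of the 13 mice with both. The log2 ratio of CPM was above 0 in 13 of 13 mice for *Hsp90aa1* (median 1.11, 0.43 to 1.81), for *Hspa5* (0.73, 0.21 to 1.16) and for *Hsph1* (0.69, 0.14 to 0.93), and in 12 of 13 for *Dnajb1* (0.49, -0.26 to 1.39). It lay on both sides of 0 for the other 6, with medians from -0.16 (*Hspa1b*) to 0.28 (*Cryab*). This ratio also carries any difference in how the 2 kinds of library were made and was not tested.

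The rest of the chaperone network gives the setting for the 10 members. No other chaperone passed the test in any comparison. Of all genes tested at 24 hours, 58% had a log2 fold change above 0 in the m6A and 65.9% in the input libraries. Of 20 other ER chaperones tested, 19 had a log2 fold change above 0 in the m6A libraries of 24 hours, with a median of 0.52. Those with the smallest p, named here after their values were seen, were *Sdf2l1* (1.45 ± 0.54), *Manf* (0.80 ± 0.34), *Dnajb11* (0.61 ± 0.27) and the collagen chaperone *Serpinh1* (1.18 ± 0.52), with adjusted p of 0.765 to 0.914. In input RNA 13 of 20 were above 0, with a median of 0.21 against 0.27 over all genes. At 2 weeks the medians were 0.16 (m6A) and 0.13 (input). The summed ER chaperones of the m6A libraries of 24 hours were 1465 CPM in mouse 8 and 3038 to 4214 CPM in the other 4 IAKA mice, against 2255 to 2733 CPM in PBS.

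The 55 other cytosolic chaperones and HSF1 partners tested had a median of 0.07 in the m6A libraries of 24 hours, and 36 were above 0. The small heat shock genes *Hspb8* (1.30 ± 0.27, adjusted p = 0.199), *Hspb3* (3.86 ± 0.81, adjusted p = 0.225) and *Hspb6* (1.67 ± 0.37, adjusted p = 0.283) had the smallest p of this list, again named after their values were seen. *Hspb8*, which works with *Bag3* in clearing damaged proteins, was at 10.98 to 20.3 CPM (median 15 CPM) in the m6A libraries of the 5 IAKA mice, lowest in mouse 8 and highest in mouse 97, and at 6.20, 7.01 and 5.46 CPM in PBS mice 71, 73 and 1, so the groups did not overlap. *Hsf1* itself had a log2 fold change of 0.06 ± 0.42 at 24 hours and -0.17 ± 0.34 at 2 weeks in the m6A libraries, and in PBS mice it was at 13.1 to 15.1 CPM in set 4 and 3.50 to 7.85 CPM in set 5. In input RNA of 24 hours 17 of 54 cytosolic chaperones were above 0 (median -0.15). At 2 weeks the medians were 0.00 (m6A) and -0.06 (input).

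Mitochondrial chaperones showed little difference at 24 hours in the m6A libraries, with 7 of 8 above 0 and a median of 0.16, and 2 of 8 were above 0 in input (median -0.27). Their medians of 2 weeks were 0.05 and -0.09. Immediate early genes, which neurons switch on with activity, had a median of 1.49 in the m6A and 1.56 in the input libraries of 24 hours, with 9 of 10 above 0 in each and none past the test.

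**Figure D5:**
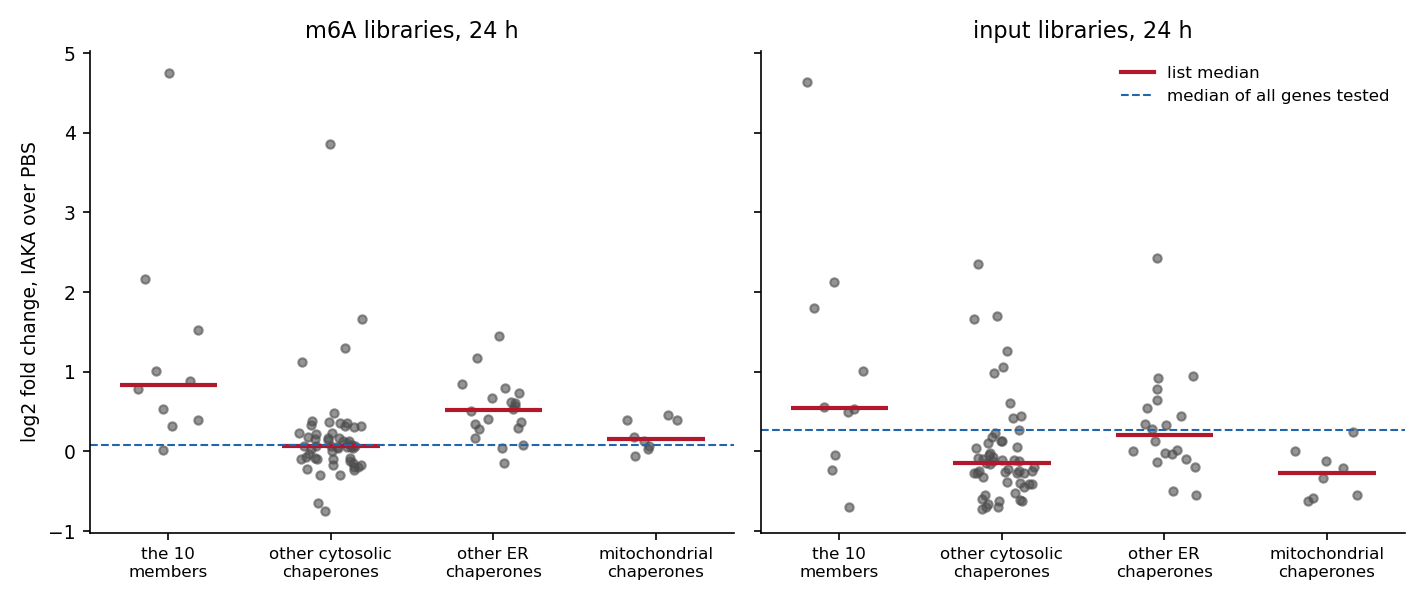
Log2 fold change of IAKA over PBS at 24 hours in the m6A and input libraries for the 10 members and for other cytosolic, other ER and mitochondrial chaperones. Each point is a gene, red lines are list medians and dashed lines the median of all genes tested. The member median is 0.83 (m6A) and 0.55 (input) and that of other ER chaperones 0.52 and 0.21. Members and lists were chosen with earlier results of these data known.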

How the data were processed

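Hippocampal RNA of 19 mice was sequenced by the authors as input and after m6A immunoprecipitation, with a stranded total RNA kit per the labels. The deposited values are raw read counts per gene symbol and lane, for 32544 genes in 15 files. The build named in the processing notes of the submitters is mm10, and aligner and counting program were not given in the sources used here. The 4 lanes of each library were summed (140 columns, 35 libraries). Another 8 columns, of mice without such a library in the labels, were not used. Column names gave the assay of 8 libraries. For 27 it was read from the numeric prefix, present for m6A and missing for input, so their assay rests on that reading. Treatment, time and mouse came from the labels, and input libraries under 100000 counts were left out. Levels are CPM (counts per 1000000 of the library total). With 0 counts, up to 3 counts remain possible, which is counting error only.

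Tests used edgeR 4.0.16 in R 4.3.3 (TMM, filterByExpr, robust quasi-likelihood fit, Benjamini-Hochberg over all genes tested, threshold 0.05), checked on simulated counts, and each SE is the size of the log2 fold change over the square root of its F. The m6A comparisons used the compared groups, the input comparisons all 13 input libraries. Alternatives were DESeq2 1.42.0, library-size scaling, no filter, small-count degrees of freedom, other sample sets, the library set or the mouse as a block and each library left out. A minimum of 5000000 counts per m6A library was chosen after the data were seen. Likeness is Spearman's rho of log2 CPM (prior count 2) over genes with a mean of at least 1 CPM. The assays were paired by the mouse numbers of the labels. Deviations from the group means correlated at -0.05 to 0.52 between the 2 libraries of a mouse, over 9 mice at 2 weeks. For 6 of the 9 this was higher than with the input of any other mouse of the group. For PBS mice 2 and 4 and IAKA mouse 6 it was lower than with another mouse, so these values do not settle the pairing.

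The text names all 10 members, *Hsf1*, the 3 genes most like *Hspb1* and *Hsph1*, and single markers beside a member. Up to 5 called genes of each other chaperone list were to be named, and none was called. The chaperones named from those lists, uncalled and with the smallest p, were chosen after seeing values and are marked so. Members and lists were chosen with earlier results of these data known. *Cct6a* and *Selenos* of these lists have no row in the tables used. Promoters are those of 7 members in RefSeq GRCm38.p6. Tables and figures used Python 3.11.15, pandas 2.3.3, numpy 2.4.6 and matplotlib 3.10.9.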

Additional observations from a re-analysis of the deposited data

Results flagged for a closer look

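Among the members, 3 values stood apart in their group, by the gap to the nearest other sample as a share of the group's range, out of 40 groups looked at. Chance alone sets apart about 1 in 20 if values are normally distributed, which was not checked for CPM. Groups of 3 libraries or fewer were not looked at, so of the PBS groups only m6A at 2 weeks was. *Hspb1* was at 20.5 CPM in the m6A library and at 9.68 CPM in the input library of IAKA mouse 42 at 2 weeks, so both libraries of this animal carry it. The other 5 IAKA mice of that time were at or below 1.37 CPM (m6A) and 1.22 CPM (input). This mouse also had the highest summed astrocyte and microglia markers, and their part in the *Hspb1* level was not tested. *Hspa5* was at 720 CPM in the m6A library of PBS mouse 50 at 2 weeks, the other 4 PBS mice being at 400 to 451 CPM. This mouse has no input library used here.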

How the results depend on the processing

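The member calls that depended on a setting were those of *Hspb1*, and within library set 4 *Hspa5* and *Hsph1*, at 24 hours in the m6A libraries, and with DESeq2 that of *Dnajb5* at 2 weeks in input. Members called in the m6A libraries of 24 hours (0 as reported) numbered 1 with DESeq2, 1 without a filter, 3 in library set 4, and 0 to 1 when each library was left out (1 without IAKA mouse 8). In input of 2 weeks DESeq2 called 1. All other member counts stayed at 0. Counts over all genes in the m6A libraries of 24 hours (1 as reported) were 156 with DESeq2, 3 with library-size scaling, 22 without a filter, 31 with all 19 libraries in 1 fit, 0 with the set as a block, 356 in set 4, 0 with 5000000 counts or more, and 0 to 45 with a library left out. The m6A libraries of 2 weeks (0 as reported) gave 15 with DESeq2, 2 without a filter, 1 with all 19 libraries and 0 to 1 with a library left out. Input of 24 hours (0 as reported) gave 197 with DESeq2, 1 with library-size scaling, 3 without a filter, 2 with small-count degrees of freedom, 8 with all 16 libraries and 1 to 180 with a library left out (180 without IAKA mouse 8). Without the only PBS mouse of that group the comparison could not be fitted. Input of 2 weeks gave 44 with DESeq2, 2 without a filter and 0 to 1 with a library left out. The change over time (1 as reported) gave 5 with DESeq2 and 2 with the set as a block. Why the counts differ was not tested.

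Directions turned as follows, on the log2 scale. *Hsp90aa1* in the m6A libraries of 24 hours was -0.011 with DESeq2, -0.08 without a filter, -0.035 with 5000000 counts or more and -0.18 to 0.37 with a library left out. At 2 weeks in the m6A libraries *Cryab* was -0.028 with library-size scaling. With the set as a block *Hspa1a* was 1.06, *Hspa1b* 0.74, *Hspa5* 0.13, *Hspa8* -0.15 and *Hsp90aa1* -0.043, and within set 5 they were 1.07, 0.76, 0.15, -0.13 and -0.027. With a library left out, *Hspb1* ran from -1.36 to 1.65, *Cryab* from -0.16 to 0.26, *Hspa5* from -0.16 to 0.094 and *Hspa8* from -0.027 to 0.28. *Hspa8* in input of 24 hours was 0.49 with all 16 libraries, *Hspa5* in input of 2 weeks ran from -0.064 to 0.17, and the change of *Hsp90aa1* over time from -0.19 to 0.37. For the change of m6A over input, leaving out a library gave -0.39 to 0.025 for *Cryab*, -0.26 to 0.009 for *Hspa5*, -0.027 to 0.14 for *Hsph1* and -3.13 to 0.52 for *Hspb1*. With the mouse as a replicate block over 9 animals, *Hspb1* was 0.07, *Cryab* 0.36, *Hspa1a* 0.23, *Hspa5* 0.01, *Hspa8* -0.10 and *Hsp90aa1* -0.023, no member was called, and 1 gene of all was called (4 with DESeq2). None of the values that turned had passed the test as reported. Depth limits *Hspb1* most, since 4 PBS libraries used held 2 counts or fewer.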
